A study of Mus musculus with 2 samples.

Results

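Mir137, Mir153, Mir488, Mir598, Mir135a-1, Mir135a-2 and Mir135b are microRNA genes known from neurons, and they were taken by their GENCODE M21 gene names from tables of 2202 counted microRNA genes, where all 7 were present. The tissue was left cerebral cortex from female mice of the strain B6CASTF1/J, first-generation hybrids of a laboratory and a wild-derived strain, at 25 days of age, and RNAs shorter than 30 nt were read. The 2 libraries are labelled as biological replicates 1 and 2 of a single group with no treatment, and no other genotype or condition was set against them. The labels give each library its own animal number but the same donor record, so differences between the libraries measure only the spread between these samples, which may be technical.

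A microRNA gene is transcribed into a hairpin, from which the 5p and 3p arms are cut as short mature RNAs. The mature RNA guides Argonaute proteins to messenger RNAs that pair with its seed, bases 2 to 8, and lowers their translation and stability. miR-137 is known for its roles in neuronal maturation and synapse function, miR-153 for repressing synaptic vesicle proteins and the amyloid precursor protein, and miR-135a for repressing the serotonin transporter. The tables count reads per gene and join both arms, so levels below are levels of genes, and the arm that gave the reads is not known.

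The mature sequences are shown because they tell which of the genes can share reads or targets. The RefSeq microRNA table (build GRCm38.p6) holds 6 of the 7 genes with 10 distinct mature RNAs, and neither Mir598 nor the mmu-miR-135b-5p arm is printed. Capitals mark the seed.

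mmu-miR-137-3p: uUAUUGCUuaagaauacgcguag
mmu-miR-137-5p: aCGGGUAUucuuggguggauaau
mmu-miR-153-3p: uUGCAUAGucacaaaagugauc
mmu-miR-153-5p: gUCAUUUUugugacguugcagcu
mmu-miR-488-3p: uUGAAAGGcuguuucuugguc
mmu-miR-488-5p: cCCAGAUAauagcacucucaa
mmu-miR-135a-5p: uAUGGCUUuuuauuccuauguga
mmu-miR-135a-1-3p: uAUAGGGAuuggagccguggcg
mmu-miR-135a-2-3p: uGUAGGGAuggaagccaugaa
mmu-miR-135b-3p: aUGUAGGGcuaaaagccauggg

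The 10 mature RNAs had 10 different seeds, and among the entries of the table no other gene carried a mature RNA with any of these seeds. miR-137, miR-153 and miR-488 therefore form separate seed families here, each with a single gene in the table. For Mir135b this search is incomplete, since the mmu-miR-135b-5p arm has no entry. The Mir135b hairpin holds the letters of the miR-135a-5p seed, AUGGCUU, from position 17. The entries therefore cannot place Mir135b outside the seed family of miR-135a-5p. miR-135a-5p is made from both Mir135a genes and was the only one of the 10 whose whole sequence occurred in 2 of the 1005 hairpins of the table. Each of the others occurred in 1 hairpin. GC content ran from 30.4% for miR-135a-5p to 59.1% for miR-135a-1-3p, with a median of 43.2% over the 10 distinct mature RNAs. The median over all 1738 mature entries, repeated names included, was 52.2%. Of the 10 mature RNAs, 6 begin with U, against 40.9% of the 1679 distinct mature names in the table.

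Each of the 7 genes lies within another annotated gene on its own strand, in an intron for 6 of them. On mm10, Mir598 (ENSMUSG00000076049.4) is at chr14:63727189-63727267 on the plus strand, in an intron of the XK-related gene Xkr6. Mir488 (ENSMUSG00000070103.2) is at chr1:158505625-158505733 on the plus strand, in an intron of Astn1, which encodes the neuronal adhesion protein astrotactin. Mir153 (ENSMUSG00000065538.1) is at chr12:117250817-117250885 on the plus strand, in an intron of Ptprn2, which encodes a membrane protein of dense-core vesicles. Mir135b (ENSMUSG00000065435.1) is at chr1:132198088-132198184 on the plus strand, in introns of Lemd1 and the overlapping gene AC124108.1.

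The other 3 have noncoding hosts. Mir137 (ENSMUSG00000065569.2) is at chr3:118433857-118433929 on the plus strand, in an exon of the noncoding gene Gm26871. Mir135a-2 (ENSMUSG00000065524.1) is at chr10:92072086-92072185 on the minus strand, in an intron of Rmst, a long noncoding RNA known from neuronal differentiation. Mir135a-1 (ENSMUSG00000065407.1) is at chr9:106154124-106154213 on the plus strand, in an intron of the noncoding gene D030055H07Rik and opposite to an exon of the glycerate kinase gene Glyctk. Reads on the opposite strand were counted apart, and all 7 genes had 0 such counts in both libraries, as did 367 of the 395 detected genes (92.9%). Detected here means 10 or more counts in each library. Host gene transcripts were not measured.

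All 7 genes were detected, and their levels spanned more than 2 orders of magnitude. Together they held 0.818% of own-strand microRNA gene counts in replicate 1 and 0.773% in replicate 2, or 0.796% ± 0.0323 (SD, n = 2). The libraries held 3017058 and 3209361 such counts, so that 3 counts, the limit a count of 0 allows, correspond to 0.994 and 0.935 CPM, the unit of counts scaled to the library total. Mir137 alone gave 65.2% of the counts of the 7 genes in replicate 1 (exact 95% interval 64.6 to 65.8) and 69.1% in replicate 2 (68.6 to 69.7). Intervals cover counting error only, since reads amplified without molecular identifiers are not independent molecules. In whole tissue, fewer cells of a type and less RNA per cell cannot be told apart, and the counts do not show which cells the reads came from.

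Mir137 stood at 5338 CPM in replicate 1 and 5342 CPM in replicate 2, from 16104 and 17144 counts. On library totals the libraries gave nearly the same level, 5340 ± 2.99 CPM (SD, n = 2), while sizes scaled by TMM, described below, gave 5356 ± 596 CPM. The mean placed the gene at rank 32 of the 2202. Mir598 stood at 2290 CPM in replicate 1 and 1632 CPM in replicate 2, from 6908 and 5237 counts. It averaged 1961 ± 465 CPM at rank 67, and Mir137 was 2.33-fold above it in replicate 1 and 3.27-fold above it in replicate 2. These were the 2 genes of the 7 above 1000 CPM, a level reached by 99 genes in all.

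Mir488 stood at 345 CPM in replicate 1 and 272 CPM in replicate 2, from 1042 and 873 counts. It averaged 309 ± 51.9 CPM at rank 153, and Mir598 was 6.63-fold and 5.999-fold above it in replicates 1 and 2. Mir153 stood at 111 CPM in replicate 1 and 352 CPM in replicate 2, from 336 and 1131 counts. Its mean of 232 ± 170 CPM, at rank 166, rests on libraries that lie far apart. Mir488 was 3.10 times as high as Mir153 in replicate 1 and 0.772 times as high in replicate 2, so their order was not settled by these data.

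The Mir135 genes were the lowest of the set. Mir135b stood at 66.6 CPM in replicate 1 and 98.2 CPM in replicate 2, from 201 and 315 counts, with a mean of 82.4 ± 22.3 CPM at rank 211. Mir135a-1 stood at 14.6 and 19.0 CPM, from 44 and 61 counts, with a mean of 16.8 ± 3.13 CPM at rank 289. Mir135a-2 stood at 18.6 and 11.8 CPM, from 56 and 38 counts, with a mean of 15.2 ± 4.75 CPM at rank 297. The 2 Mir135a genes overlapped and changed places between the libraries, while both lay below Mir135b in each library. This order is that of reads placed at a single locus, and Mir135a reads that fit both loci lie outside it. Even these lowest levels were above the limit that a count of 0 allows.

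**Figure D1:**
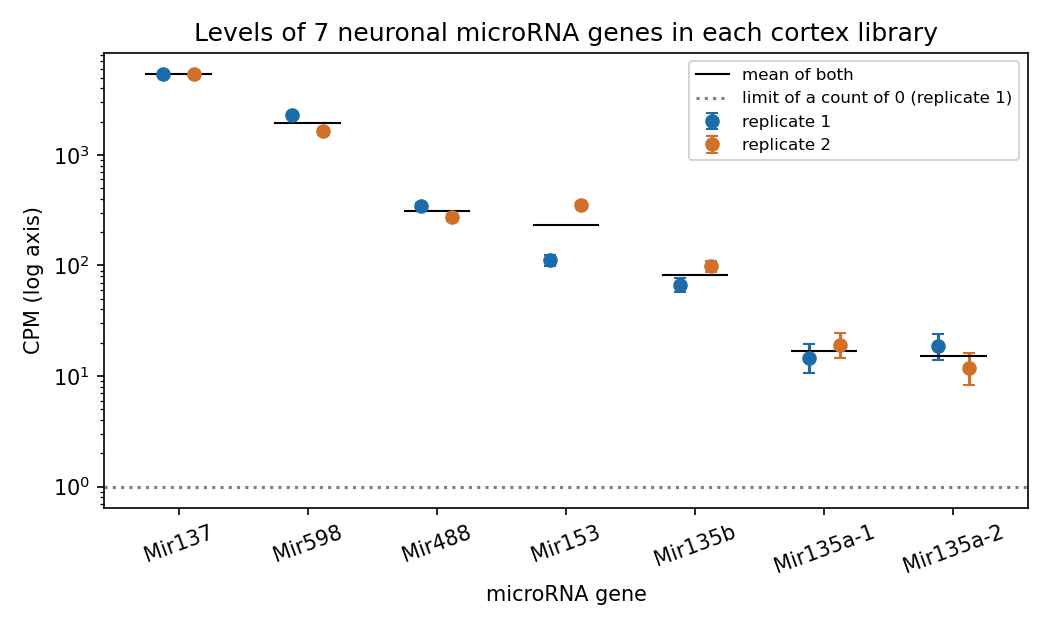
CPM of each gene (log axis) in replicate 1 (blue) and replicate 2 (orange) with exact 95% Poisson intervals, the mean of both as a black line and the limit of a count of 0 in replicate 1 as a dotted line. Levels fall from 5340 CPM for Mir137 to 15.2 CPM for Mir135a-2, and the widest gap between the replicates on this axis is that of Mir153.

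In the order Mir137, Mir598, Mir488, Mir153, Mir135b, Mir135a-1, Mir135a-2, the values of neighbouring genes did not overlap for 4 of the 6 pairs. The exceptions were Mir488 with Mir153 and Mir135a-1 with Mir135a-2. Between the ends of the order, Mir137 was 288-fold above Mir135a-2 in replicate 1 and 451-fold above it in replicate 2, again among reads placed at a single locus. The printed mature arms are 21 to 23 nt long, so CPM was not divided by length. Per 100 nt of annotated hairpin, Mir153 (336 CPM, hairpin of 69 nt) passed Mir488 (283 CPM, hairpin of 109 nt), and the other pairs kept their order.

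The genes next above and next below each of the 7 in mean CPM were located to place them in the profile. For all 14 pairs the replicate ranges overlapped. Overlap is likely for genes chosen as adjacent in mean, so it says only that the exact ranks are not settled. Mir137 lay between Mir674, at 9778 and 2080 CPM in replicates 1 and 2, and Mir29a, at 5499 and 5094 CPM. Mir598 lay between Mir434 of the imprinted Dlk1-Dio3 locus (1658 and 2398 CPM) and Mirlet7f-2 (1912 and 2001 CPM). The Mir488 neighbours were Mir106b (163 and 492 CPM) and Mir3475 (328 and 289 CPM), and those of Mir153 were Mir467e (278 and 207 CPM) and Mir188 (205 and 250 CPM). Mir135b lay between Mir101a (51.4 and 114 CPM) and Mir29b-2 (59.0 and 102 CPM). Mir3086, Mir7066, Mir181a-2 and Mir3097 flanked the Mir135a genes, with mean levels from 15.1 to 16.9 CPM.

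The libraries were compared with each other gene by gene, to see which levels were stable beyond counting noise. The test was a two-sided exact binomial test given library sizes scaled by TMM, a trimmed mean of gene ratios, over all genes with at least 10 counts in total, and an adjusted p (Benjamini-Hochberg) under 0.05 counted as a call. It compares 2 libraries and not conditions. Of 496 genes tested, 280 were called (56.5%), and among the 231 genes that averaged 50 CPM or more the share was 88.3%. Of the 7 genes 6 were called, and all 5 at or above 50 CPM, a share near that background. Called genes split into 152 higher in replicate 1 (30.6% of those tested) and 128 higher in replicate 2 (25.8%), and those of the 7 into 4 and 2. Relative to library totals TMM moved every log2 ratio by -0.23, and with library totals the split was 102 and 180 over all genes and 2 and 2 among the 7.

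Mir153 differed most among the 7. Its TMM-scaled level was 2.70-fold higher in replicate 2 (log2 ratio 1.43, 95% interval 1.26 to 1.61; exact binomial test, adjusted p = 9.46e-66). Among those 231 genes its ratio ranked 13 in size, and 13.9% of them were over 2-fold apart. Mir153 was the only one of the 5 genes at that level to exceed 2-fold. Within the counts of the 7 genes, a measure that needs no library size, its share was 1.36% in replicate 1 (exact 95% interval 1.22 to 1.51) and 4.56% in replicate 2 (4.30 to 4.83).

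Mir598 and Mir488 went the other way. Mir598 was 1.64-fold higher in replicate 1 (log2 ratio -0.72, interval -0.77 to -0.67; exact binomial test, adjusted p = 4.39e-163). Mir488 was 1.49-fold higher in replicate 1 (log2 ratio -0.57, interval -0.70 to -0.44; exact binomial test, adjusted p = 1.63e-17). Both kept this direction with library totals, at log2 ratios of -0.49 and -0.34.

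The direction for Mir137 depended on the scaling. With TMM it was 1.17-fold higher in replicate 1 (log2 ratio -0.23, interval -0.26 to -0.20; exact binomial test, adjusted p = 6.02e-46), a value close to the shift that TMM itself makes. With library totals its log2 ratio was 0.0011 (exact binomial test, adjusted p = 0.987), at rank 230 of the 231 genes in size.

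Mir135b was 1.26-fold higher in replicate 2 (log2 ratio 0.33, interval 0.071 to 0.59; exact binomial test, adjusted p = 0.0219). Mir135a-2 was 1.84-fold higher in replicate 1 (log2 ratio -0.88, interval -1.51 to -0.26; exact binomial test, adjusted p = 0.00734), and with library totals this call was lost (log2 ratio -0.65, exact binomial test, adjusted p = 0.0649). The Mir135a-1 ratio was 0.15 (interval -0.43 to 0.75; exact binomial test, adjusted p = 0.712). At 44 and 61 counts, a difference of that size was not detectable. The 7 genes thus shared no single direction between the libraries.

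**Figure D2:**
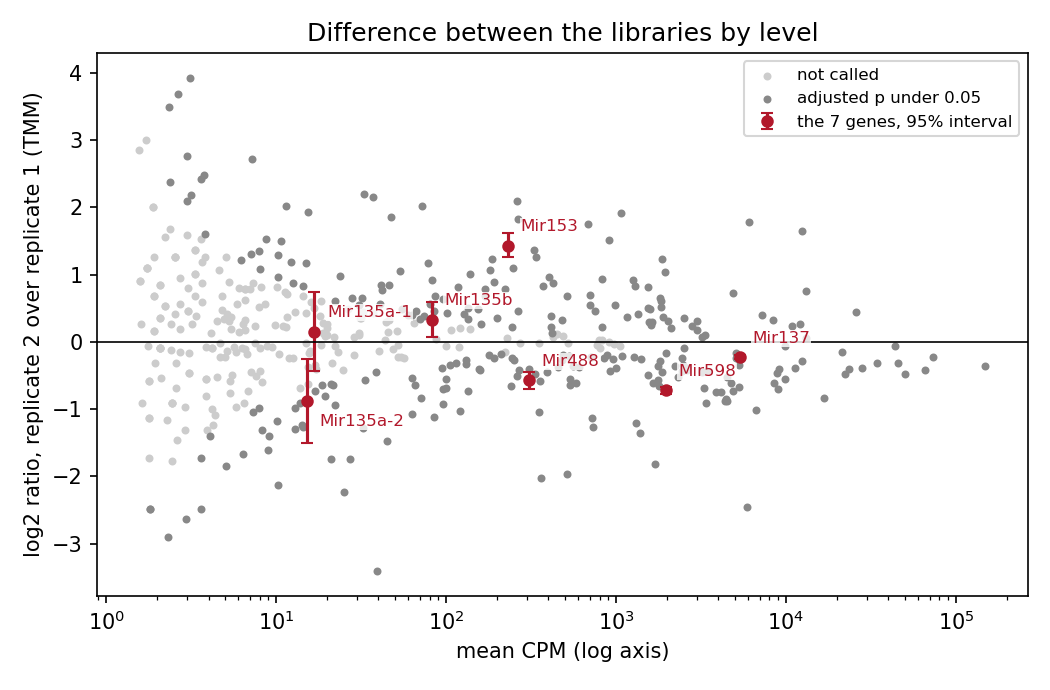
Log2 ratio of replicate 2 over replicate 1 after TMM scaling against mean CPM (log axis) for 493 tested genes (3 more had 0 counts in 1 library and are not drawn), with called genes in dark grey and the 7 genes in red with 95% counting intervals. Mir153 lies at 1.43, above the other 6 genes, which lie between -0.88 and 0.33.

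The Mir135 hairpins are shown to compare the 3 genes of this family, whose counts can be affected by shared sequence. Capitals mark the longest stretch that each hairpin shares with another of the 3.

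Mir135a-1: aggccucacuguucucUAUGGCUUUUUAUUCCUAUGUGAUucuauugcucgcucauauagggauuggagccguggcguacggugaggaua
Mir135a-2: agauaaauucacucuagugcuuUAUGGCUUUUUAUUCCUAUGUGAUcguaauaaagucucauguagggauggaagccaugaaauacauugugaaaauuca
Mir135b: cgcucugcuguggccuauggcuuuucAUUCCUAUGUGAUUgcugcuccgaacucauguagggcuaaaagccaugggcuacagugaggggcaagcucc

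Mir135a-1 and Mir135a-2 share 24 nt, which hold the whole of miR-135a-5p, and no stretch of that length with Mir135b. The longest exact stretch Mir135b shares with either is 14 nt, with Mir135a-1. Against the 24 nt, however, the Mir135b hairpin differs at a single letter, a c in place of a U. Whether reads were placed across this difference was not tested. Over an alignment of the whole hairpins, identity was 67.0% between the 2 Mir135a genes, 66.3% between Mir135a-1 and Mir135b and 61.5% between Mir135a-2 and Mir135b. The letters of the miR-135a-5p seed, AUGGCUU, occur once in each of the 3 hairpins, starting at position 18 of Mir135a-1, 24 of Mir135a-2 and 17 of Mir135b, and in 8 of the 1005 hairpins of the table (0.796%, own strand). A match in a hairpin does not show that a mature RNA with this seed was made.

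A read of miR-135a-5p fits both Mir135a hairpins equally well. Such reads belong to a class outside the gene counts, that of reads placed at several loci, which took up 40.3% of all reads in replicate 1 and 39.0% in replicate 2, and how many of them came from miR-135a-5p is not known from the tables. The Mir135a levels are therefore levels of the reads placed at a single locus. They leave out reads of miR-135a-5p that stay within the shared stretch, and how far they fall short was not tested. Over the annotated microRNA hairpins, Mir137, Mir598, Mir488, Mir153 and Mir135b shared no exact stretch of 20 nt with any other gene. A single differing letter, as between Mir135b and the Mir135a genes, is enough to break such a stretch.

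Among counted reads, the Mir135 genes together stood at 99.8 CPM in replicate 1 and 129 CPM in replicate 2. Mir135b supplied 66.8% of their 301 counts in replicate 1 (exact 95% interval 61.1 to 72.1) and 76.1% of 414 in replicate 2 (71.7 to 80.1). Mir135a-1 held close to the same share in both libraries, 14.6% (10.8 to 19.1) and 14.7% (11.5 to 18.5). The Mir135a-2 share was 18.6% (14.4 to 23.5) and 9.18% (6.58 to 12.4), and its intervals did not overlap. Of the counts of the 2 Mir135a genes alone, Mir135a-1 gave 44.0% in replicate 1 (34.1 to 54.3) and 61.6% in replicate 2 (51.3 to 71.2), with intervals that overlap.

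**Figure D3:**
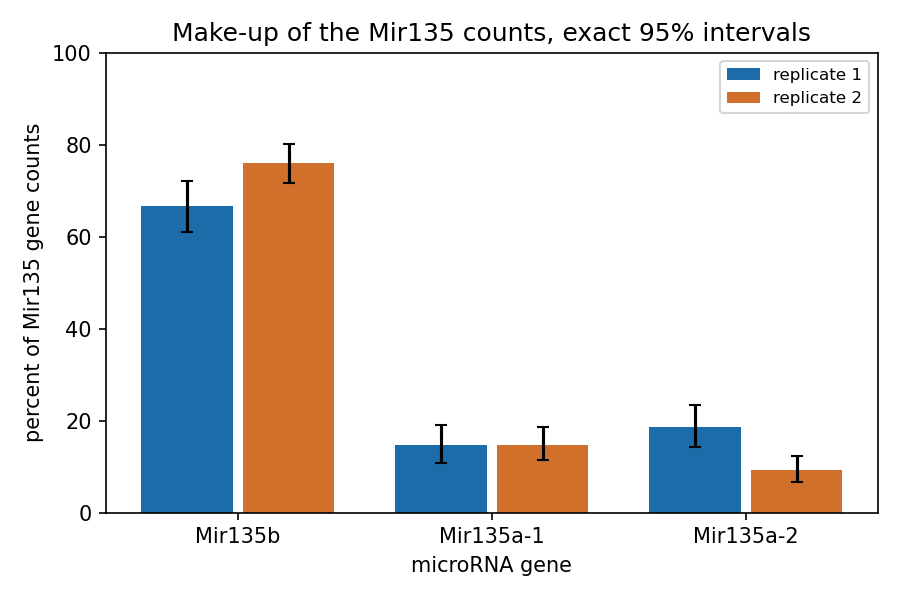
Share of the counted reads of the 3 Mir135 genes that each gene gave, in percent, in replicate 1 (blue, 301 counts) and replicate 2 (orange, 414 counts), with exact 95% binomial intervals. Mir135b holds the most in both libraries, and the Mir135a-2 bar is lower in replicate 2.

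Within 50 kb of the 7 genes lay 2 other counted microRNA genes. Mirlet7g, one of the abundant let-7 genes, starts 24627 bp downstream of Mir135a-1 on the same strand. It stood at 69802 CPM in replicate 1 and 61365 CPM in replicate 2 while Mir135a-1 stood at 14.6 and 19.0 CPM, so the neighbours differed by more than 3 orders of magnitude among counted reads. Gm24155, 792 bp from Mir137 on the same strand, had 1 count in each library beside the 16104 and 17144 of Mir137. Mir1251, in the same region as Mir135a-2 at 64955 bp, had 0 and 21 counts. No neighbour within 50 kb was found for Mir153, Mir488, Mir598, Mir135b or Mir135a-2.

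Against a list of 22 other neuronal microRNA genes, the 7 took a middle place among reads placed at a single locus. Reads placed at several loci lie outside the counts of that list too, and their part in its levels was not tested. Not detected in it were Mir124a-1 (3 and 9 counts in replicates 1 and 2), Mir124a-2 (0 and 3), Mir124a-3 (5 and 4) and Mir9-2 (5 and 7). Of the other list, 18 of 22 were detected and 10 reached 1000 CPM, and it held 21.8% ± 0.897 of counts, led by Mir139 at 148859 ± 9844 CPM, Mir132 at 34178 ± 1376 CPM and Mir128-1 at 13186 ± 1882 CPM. The median gene stood at 259 CPM in that list and at 232 CPM among the 7, while the median of all 2202 genes was 0 CPM and that of the 395 detected genes 101 CPM. Among reads placed at a single locus, Mir137 lay close to Mir138-1 (5132 and 5113 CPM), a microRNA of dendritic spines, and to Mir383 (6079 and 4468 CPM). Mir138-2 is in that list too (2740 and 2464 CPM). Any reads that fit both Mir138 genes would lie outside both levels, and their number was not tested. In the library comparison 16 of 20 tested genes of the other list were called, 10 higher in replicate 1 and 6 higher in replicate 2, beside 4 and 2 of the 7 and 30.6% and 25.8% of all tested genes. With library totals these counts were 7 and 6 in that list and 2 and 2 among the 7. The median log2 ratio was -0.12 in that list, -0.23 among the 7 and 0.0058 over all 496 tested genes, and with library totals it was 0.11, 0.0011 and 0.23.

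**Figure D4:**
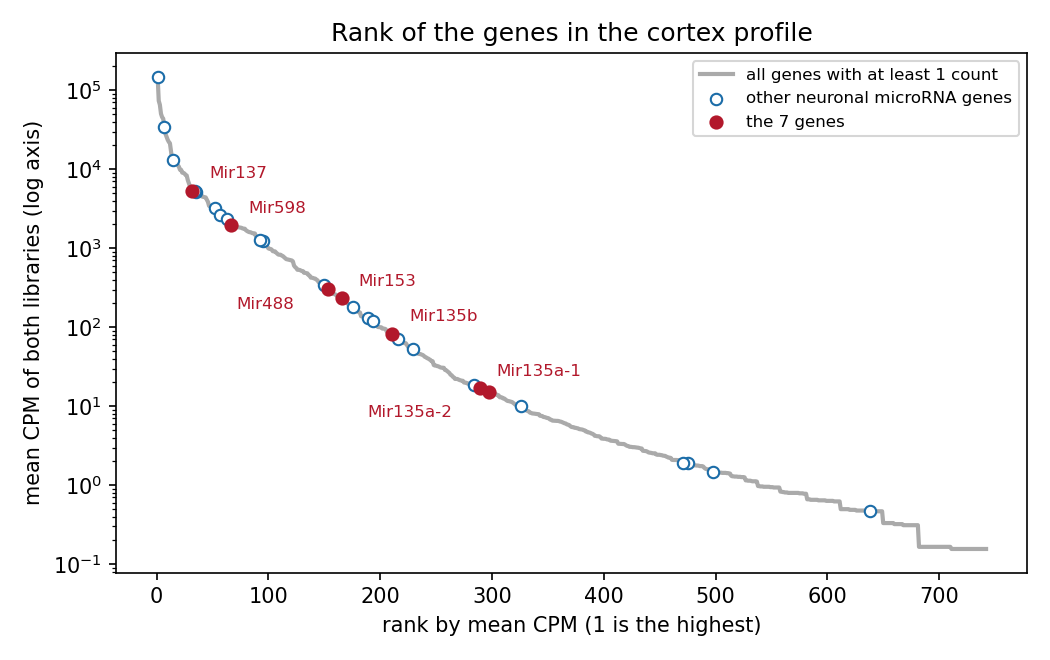
Mean CPM of both libraries (log axis) against rank for all genes with at least 1 count (grey line), the 22 other neuronal genes (open circles) and the 7 genes (red). The 7 genes run from rank 32 to rank 297. Among reads placed at a single locus, the other neuronal genes extend both above and below that range.

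Marker genes of other cortical cells were present in both libraries, and some differed between them. Calls here are after TMM scaling and summed shares are of library totals. All 5 microglial and immune genes were called higher in replicate 1, against 30.6% of all tested genes, but 3 of the 5 with library totals. Their summed share was 0.284% in replicate 1 and 0.240% in replicate 2. Most of them averaged 50 CPM or more, a level at which 88.3% of genes were called in either direction. All 3 oligodendrocyte genes were called higher in replicate 2 under both scalings, against 25.8% of all tested genes after TMM, with 0.366% and 0.563%. Only 2 of these 3 were detected in both libraries, since Mir219a-1 had 3 and 17 counts, and those 2 also averaged over 50 CPM. The 5 astrocyte genes held 4.05% and 3.55%, with 3 called higher in replicate 1 and 1 higher in replicate 2 (3 and 2 with library totals), and the 4 endothelial and mural genes held 1.20% and 1.26%, with 2 and 1 under both. Red blood cell genes (0.00510% and 0.00754%) and choroid plexus and ciliated genes (0.0970% and 0.0777%) gave little, and Mir126b and Mir449c were at 0. The part of these differences in the ratios of Mir153, Mir598 and Mir488 was not tested.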

How the data were processed

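The 2 libraries came from total RNA with a multiplexed microRNA library protocol, per the labels' protocols. The deposited tables hold raw read counts per microRNA gene on mm10 with annotation M21, made from 1 FASTQ file each, per the file descriptions deposited with them. Aligner and counter were not given in the sources used here. Columns 2 to 4 were read from their values as either strand, own strand and opposite strand, and the own-strand column was used. The 4 classes of reads without a gene were left out of library sizes: unmapped reads made up 18.5% and 20.8% of reads in replicates 1 and 2, reads at several loci 40.3% and 39.0%, and reads outside microRNA genes 5.59% and 5.69%, while ambiguous reads were 0. Replicate numbers follow the labels.

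CPM used the sum of own-strand gene counts. Library comparisons used an exact binomial test on all genes with at least 10 counts in total, with TMM sizes from edgeR 4.0.16 and, as alternatives, library totals and DESeq2 1.42.0 size factors. The test was also run on simulated Poisson counts (501 genes) at the known library totals. There it called 0.549% of 364 unchanged genes, 36.4% of 44 genes with a 1.25-fold change, 67.3% of 49 at 2-fold and 97.7% of 44 at 4-fold. The simulation held no spread beyond counting noise and no TMM step, so these shares give no error rate for the real libraries. Between the real libraries, the common coefficient of variation beyond counting noise, estimated with edgeR, was 36.7%. Values were computed with Python 3.11.15, scipy 1.17.1 and R 4.3.3.

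The members and lists were chosen with earlier results of these data known. Named genes were the 7, the genes next to each in mean CPM, counted microRNA genes within 50 kb and the 3 highest other neuronal genes. Mir138-1, Mir138-2, Mir383, Mir1251, Gm24155, Mir124a-1, Mir124a-2, Mir124a-3, Mir9-2 and Mir219a-1 were named after their values were seen.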

Additional observations from a re-analysis of the deposited data

Results flagged for a closer look

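Reads placed at several loci lie outside the gene counts and were far above the limit that a count of 0 allows, with 40.34% of all reads in replicate 1 (exact 95% interval 40.30 to 40.37) and 38.99% in replicate 2 (38.96 to 39.02). Among the 7 genes this touches Mir135a-1 and Mir135a-2, which share the whole of miR-135a-5p, and its size for them was not tested. Whether it touches the others was not tested either, since only exact stretches of annotated microRNA hairpins were compared. No group had the 4 samples needed to look for single samples that stand apart.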

How the results depend on the processing

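The 7 genes stayed detected with a minimum of 1 count in both libraries, and 5 of them reached 100 counts. With all reads as the denominator, mean levels fell by construction to 1871 CPM for Mir137, 689 for Mir598, 108 for Mir488, 80.7 for Mir153, 28.8 for Mir135b, 5.87 for Mir135a-1, 5.34 for Mir135a-2 and 2789 for the 7 together. The either-strand column has a smaller total, and there Mir137 stood at 5720 CPM and the 7 together at 8522. TMM-scaled sizes gave 5356 ± 596 CPM for Mir137, against an SD of 2.99 on library totals. Without 1 replicate, levels ranged from 5338 to 5342 CPM for Mir137, from 1632 to 2290 for Mir598, from 272 to 345 for Mir488, from 111 to 352 for Mir153, from 66.6 to 98.2 for Mir135b, from 14.6 to 19.0 for Mir135a-1 and from 11.8 to 18.6 for Mir135a-2. Each replicate alone, like hairpin length, kept 5 of the 6 neighbouring pairs of the order.

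Library totals turned the Mir137 log2 ratio to 0.0011 and left the Mir135a-2 ratio at -0.65 without a call, so that 4 of the 7 genes were called. Calls of the other lists with library totals were added after the data were seen. Under DESeq2 size factors, the either-strand column and both other count minimums, 6 of the 7 were called and no log2 ratio of the 7 changed sign. The Mir153 ratio ran from 1.43 to 1.66 over these settings. Counts of microRNA genes near the 7 were 1 within 10 kb and 3 within 100 kb. The search for genome copies of the mature sequences was not run, since no genome sequence was used here. Depth limits the Mir135a genes, with 38 to 61 counts per library. Leaving out a replicate gives no ratio between libraries.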
